A study of Rattus norvegicus with 24 samples.

Results

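The genes described here repair double-strand DNA breaks or signal that DNA is damaged. The list held 56 genes, and 47 of them had a probe set with exactly 1 gene symbol, out of 14217 such genes on the arrays. The brightest probe set stood for each gene, and for 11 of the 47 further probe sets served as a check. By role, 15 of the 47 act in recombination, 7 are helicases and resolvases, 7 act in end joining, 3 belong to the Fanconi pathway, 8 to checkpoint signalling, and 7 act on chromatin around a break or in lesion bypass. Rad51d, Dmc1, Rad54b, Eme1, Fanci, Fancg, Atm, Rad9a and Claspn were on the list and were not analysed here.

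RNA was measured on 24 Affymetrix arrays, 6 for each of 4 groups of Brown Norway rats, an inbred strain. The groups were round spermatids of aged rats (18 months), round spermatids of young rats (4 months), pachytene spermatocytes of aged rats and pachytene spermatocytes of young rats. None of the rats carried a treatment or an allele that the labels name. By the numbers in the labels, 12 rats gave both fractions, and the labels put the purity of the fractions above 83%, so each value is of a fraction that also held other cells. In such bulk RNA, fewer cells of a type and less RNA per cell cannot be told apart.

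A double-strand break is found by the Mre11, Rad50 and Nbn complex, which starts the trimming of its ends together with Rbbp8. In recombination, Brca1 with Bard1, Palb2 and Brca2 then act on the single strand, and an intact copy of the sequence serves as template. End joining instead ties the ends together directly, with the Ku proteins, the kinase Prkdc and the ligase Lig4. Pachytene is a stage of the long prophase of the first meiotic division, when the breaks made on purpose by Spo11 are repaired by recombination, and when the Atr kinase and the histone H2ax mark the unpaired sex chromosomes. Round spermatids are haploid, with no sister chromatid or homologous chromosome to copy from.

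The array values are log2 signals. For the age comparisons they were quantile normalized within each cell type, so a change is relative to all probe sets of the array. A gene was called when its adjusted p (limma, Benjamini-Hochberg over 31042 probe sets) was under 0.05. In each array 38 to 41 of the 47 genes lay above the median of all probe sets. The fractions carried the markers of their labels: the mean of 10 pachytene markers lay at 11.4 to 11.6 in aged and 11.1 to 11.5 in young round spermatids, against 12.7 to 12.8 in aged and 12.4 to 12.8 in young pachytene spermatocytes. The mean of 14 late spermiogenesis markers, such as the protamines, lay at 14.55 to 14.62 in aged and 14.61 to 14.69 in young round spermatids, against 12.8 to 13.3 in aged and 13.1 to 14.3 in young pachytene spermatocytes. In pachytene spermatocytes, the arrays of young rats 1, 10 and 11 stood apart from the other 9 on the first principal component, which held 73.9% of the variance, with scores of -86.3, -47.1 and -44.0 against -7.38 or more. In round spermatids that of young rat 10 stood apart (-40.7, against -18.7 or more). Results are therefore also given without these 3 rats.

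In aged pachytene spermatocytes, 18 of the 47 genes were higher than in young ones and 1, Atr, was lower. Among all 14217 genes, 25.5% were called higher and 19.0% lower. The median change of the 47 genes was 0.12 on the log2 scale, beside 0.05 over all probe sets. For 15 of the 47 genes, all of them among the 18, the 6 aged arrays lay wholly above the 6 young ones, beside 16.7% of all genes. No member had its aged arrays wholly below, beside 10% of all genes. These counts depend on the scale: on the deposited scale, where the median of all probe sets was shifted by -0.24 with age, 6 members were called higher and 23 lower (all genes 6.70% and 55.8%), and with arrays centred on hybridization controls, where that shift was -0.12, 9 higher and 8 lower (11.1% and 29.3%). With each array centred on its median the counts were 20 higher and 2 lower (37.8% and 16.8%), at a shift of 0.14. Called higher on all 4 scales, and also without young rats 1, 10 and 11, were 6 genes: Nbn, Slx4, Nhej1, Fancd2, Hus1 and Rnf168. They made up 12.8% of the members, beside 6.61% of all genes higher on all 4 scales, and no member was lower on all 4, beside 15.6% of all genes.

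**Figure D1:**
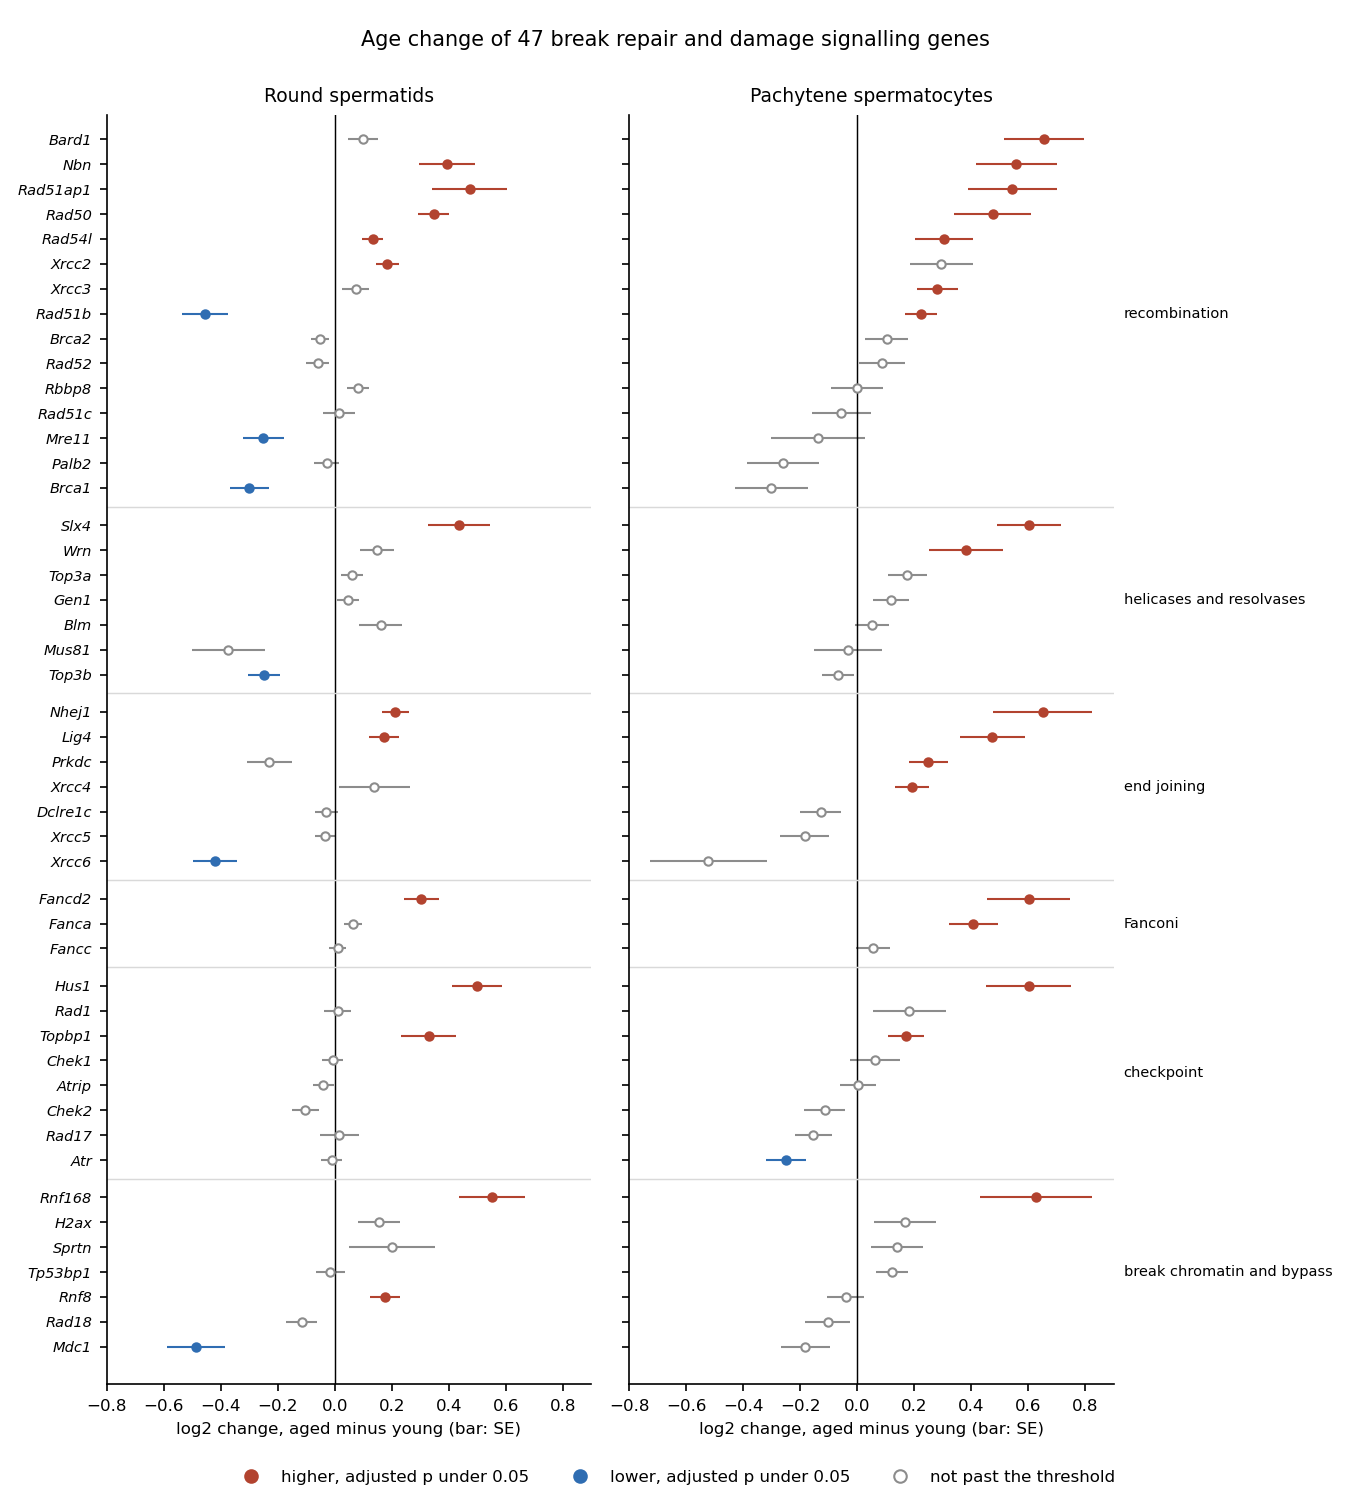
Age change of each of the 47 genes, with round spermatids on the left and pachytene spermatocytes on the right. The x axis is the log2 change, aged minus young, after quantile normalization within the cell type; bars are standard errors (n = 6 arrays per age), and filled points passed an adjusted p of 0.05. In pachytene spermatocytes 18 points are filled on the higher side and 1, Atr, on the lower, while round spermatids have 13 and 6. Other scalings move these counts and turn some signs, as the text gives.

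Among the 15 recombination genes, 7 were higher and none lower in aged pachytene spermatocytes (46.7% higher, beside 25.5% of all genes). Bard1, the partner of Brca1 in a ubiquitin ligase, lay at 8.28, 8.47 and 8.54 (lowest, median and highest array) in aged pachytene spermatocytes, against 7.14, 7.85 and 8.15 in young ones. The groups did not overlap, and the change was 1.57-fold (log2 change 0.66, SE 0.14, adjusted p = 0.00431), falling to 0.23 with an adjusted p of 0.082 on the deposited scale. Nbn, the signalling subunit of the break-sensing complex, lay at 11.46, 11.50 and 11.71 in aged and 10.55, 11.01 and 11.35 in young pachytene spermatocytes (1.47-fold, log2 change 0.56, SE 0.14, adjusted p = 0.0093). All 6 aged arrays lay above every young array. The subunits of that complex did not move together: Rad50 changed by 0.47 (adjusted p = 0.016), while Mre11, its nuclease, had a change of -0.14 (adjusted p = 0.54).

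Rad51b, Rad51c, Xrcc2 and Xrcc3 are subunits of complexes that bind single-stranded DNA early in recombination. Rad51b lay at 8.15, 8.21 and 8.33 in aged pachytene spermatocytes, against 7.85, 8.04 and 8.08 in young ones. It was called higher after quantile normalization (1.17-fold, log2 change 0.22, SE 0.05, adjusted p = 0.00823) but lower on the deposited scale (-0.21, adjusted p = 0.042), so its direction rests on the scaling. Xrcc3 was also called higher (0.28, but -0.049 on the deposited scale), Xrcc2 had 0.29 and missed the threshold (adjusted p = 0.052), and Rad51c had -0.06. Of the other recombination genes, Rad51ap1 changed by 0.54 and Rad54l, a motor protein, by 0.30 (-0.13 on the deposited scale), whereas the mediators Brca2 (0.10) and Palb2 (-0.26), and Brca1 itself (-0.30, adjusted p = 0.080), did not pass.

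**Figure D2:**
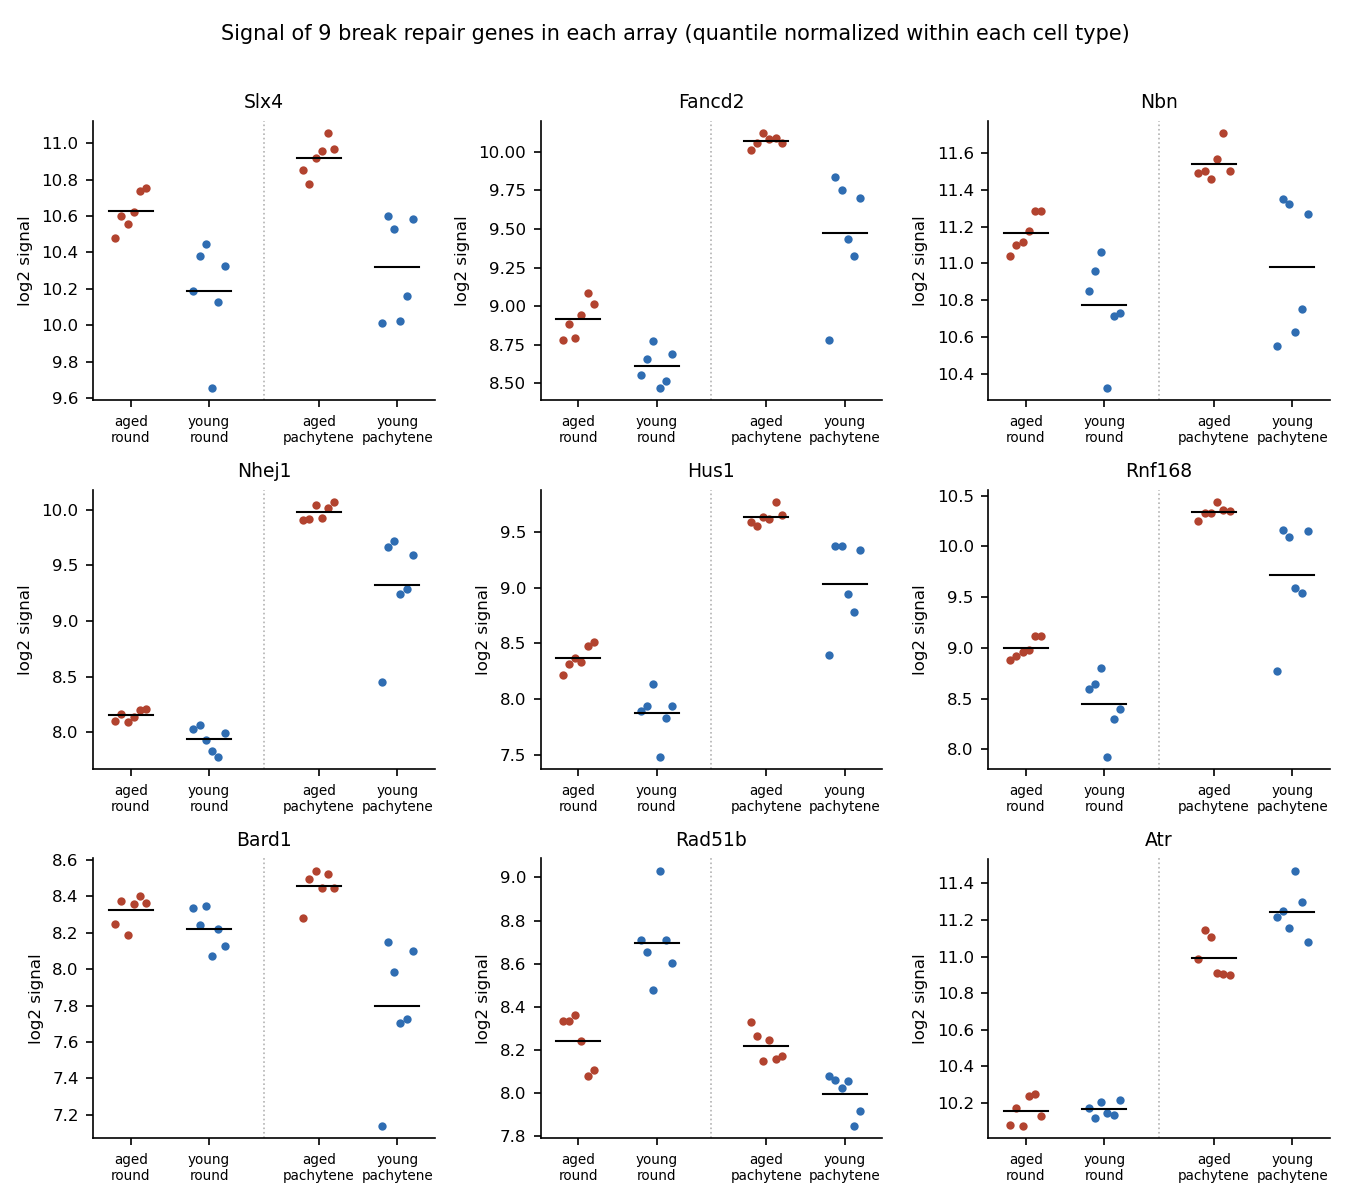
Signal of 9 genes in every array, on the log2 scale after quantile normalization within each cell type. Each point is an array, bars are group means, and the groups from left to right are aged round, young round, aged pachytene and young pachytene; panels have their own y ranges. For Slx4, Fancd2, Nbn, Nhej1, Hus1 and Rnf168 every aged pachytene array lies above every young one, and Rad51b is lower in aged round spermatids.

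Of the 7 helicases and resolvases 2 were higher in aged pachytene spermatocytes (28.6%, near the 25.5% of all genes). Slx4, the scaffold that holds the nucleases which cut joined DNA molecules, had the smallest p of all members. It lay at 10.77, 10.94 and 11.05 in aged pachytene spermatocytes, against 10.01, 10.34 and 10.60 in young ones, with no overlap (1.52-fold, log2 change 0.60, SE 0.11, adjusted p = 0.00204). Its second probe set changed by 0.70. Wrn, a helicase, was the other called gene (0.38, adjusted p = 0.035), and it was no longer called when any 1 of aged rats 2, 3 and 9 and young rats 1, 10 and 11 was left out. The nuclease Mus81, which docks on Slx4, had a change of -0.03, and Blm, Top3a, Gen1 and Top3b had changes of -0.07 to 0.17.

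End joining had 4 of 7 genes higher (57.1%, beside 25.5% of all genes). The 3 genes of the ligation step were all among them: Lig4, the ligase, with its partners Xrcc4 and Nhej1. Nhej1 lay at 9.90, 9.97 and 10.07 in aged pachytene spermatocytes, against 8.45, 9.44 and 9.72 in young ones (1.57-fold, log2 change 0.65, SE 0.17, adjusted p = 0.0121). Lig4 lay at 8.32, 8.53 and 8.59 in aged and 7.48, 8.10 and 8.28 in young pachytene spermatocytes (1.39-fold, log2 change 0.47, SE 0.12, adjusted p = 0.0077), with a change of 0.05 on the deposited scale. Neither gene's groups overlapped. Xrcc4 changed by 0.19 and Prkdc by 0.25. Both had the other sign on the deposited scale, Xrcc4 with -0.17 and Prkdc with -0.15, where Prkdc was called lower (adjusted p = 0.0488). The second probe set of Xrcc4, with a mean of 6.64 on the deposited scale, changed by 0.02 (adjusted p = 0.86). Xrcc4 was not called with its probe sets averaged, without young rat 10 or without aged rat 9. The Ku subunits went the other way without passing the threshold, Xrcc6 with -0.52 (adjusted p = 0.061) and Xrcc5 with -0.19, as did the nuclease Dclre1c with -0.13.

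In the Fanconi pathway, which repairs DNA crosslinks, Fanca and Fancd2 were higher in aged pachytene spermatocytes. Fancd2, which is tagged with ubiquitin when the pathway is active, lay at 10.01, 10.07 and 10.12 in aged pachytene spermatocytes, against 8.78, 9.57 and 9.84 in young ones. Every aged array lay above every young one (1.52-fold, log2 change 0.60, SE 0.14, adjusted p = 0.00734). Fanca, of the core complex that adds the tag, lay at 7.96, 8.03 and 8.19 in aged and 7.34, 7.65 and 7.91 in young pachytene spermatocytes (1.33-fold, log2 change 0.41, SE 0.09, adjusted p = 0.004), but had -0.02 on the deposited scale. Fancc, of the same complex, had a change of 0.06.

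Among the 8 checkpoint genes 2 were higher and 1 lower (25% and 12.5%, beside 25.5% and 19.0% of all genes). Hus1, a subunit of the clamp that is loaded beside damage, lay at 9.55, 9.63 and 9.77 in aged pachytene spermatocytes, against 8.40, 9.14 and 9.38 in young ones (1.52-fold, log2 change 0.60, SE 0.15, adjusted p = 0.00858). Its second probe set changed by 0.65. Rad1, of the same clamp, had a change of 0.18 (adjusted p = 0.28), and the clamp loader Rad17 had -0.15. Atr, the kinase called by single-stranded DNA, lay at 10.90, 10.95 and 11.15 in aged and 11.08, 11.23 and 11.47 in young pachytene spermatocytes, with the groups overlapping (1.19-fold lower, log2 change -0.25, SE 0.07, adjusted p = 0.0154). With median centring its change was 0.01 and it was not called. Topbp1, the activator of Atr, was called higher by 0.17 with an adjusted p of 0.048 and lost that call when any 1 of 10 of the 12 rats was left out, while Chek1, Chek2 and Atrip did not pass.

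Of the 7 genes of break chromatin and bypass, Rnf168 alone was called, as higher (14.3%, beside 25.5% of all genes). This ubiquitin ligase, which marks histones around a break, lay at 10.25, 10.34 and 10.44 in aged pachytene spermatocytes, against 8.78, 9.84 and 10.16 in young ones (1.54-fold, log2 change 0.63, SE 0.20, adjusted p = 0.0251). The groups did not overlap, but the adjusted p was 0.053 without young rat 10 and 0.051 without aged rat 8. Rnf8, the ligase that acts before it, had a change of -0.04, and H2ax, Mdc1, Tp53bp1, Rad18 and Sprtn had changes of -0.18 to 0.17.

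Young rat 1 held the lowest young pachytene value for 15 of the 18 genes called higher. Without young rats 1, 10 and 11, 14 members were called higher and none lower, beside 17.4% and 12.8% of all genes. Markers of other cells moved with age in the same arrays. Of 14 Sertoli cell markers, 12 were lower in aged pachytene spermatocytes, and their mean lay at 9.43 to 9.77 in aged and 10.21 to 10.97 in young arrays. Of 14 late spermiogenesis markers, 12 were also lower, with a mean of 12.8 to 13.3 in aged and 13.1 to 14.3 in young arrays, and 5 of 10 spermatogonium markers were lower. Of 10 pachytene markers 1 was higher and 2 were lower. The part of these other cells in the changes of the repair genes was not tested.

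**Figure D3:**
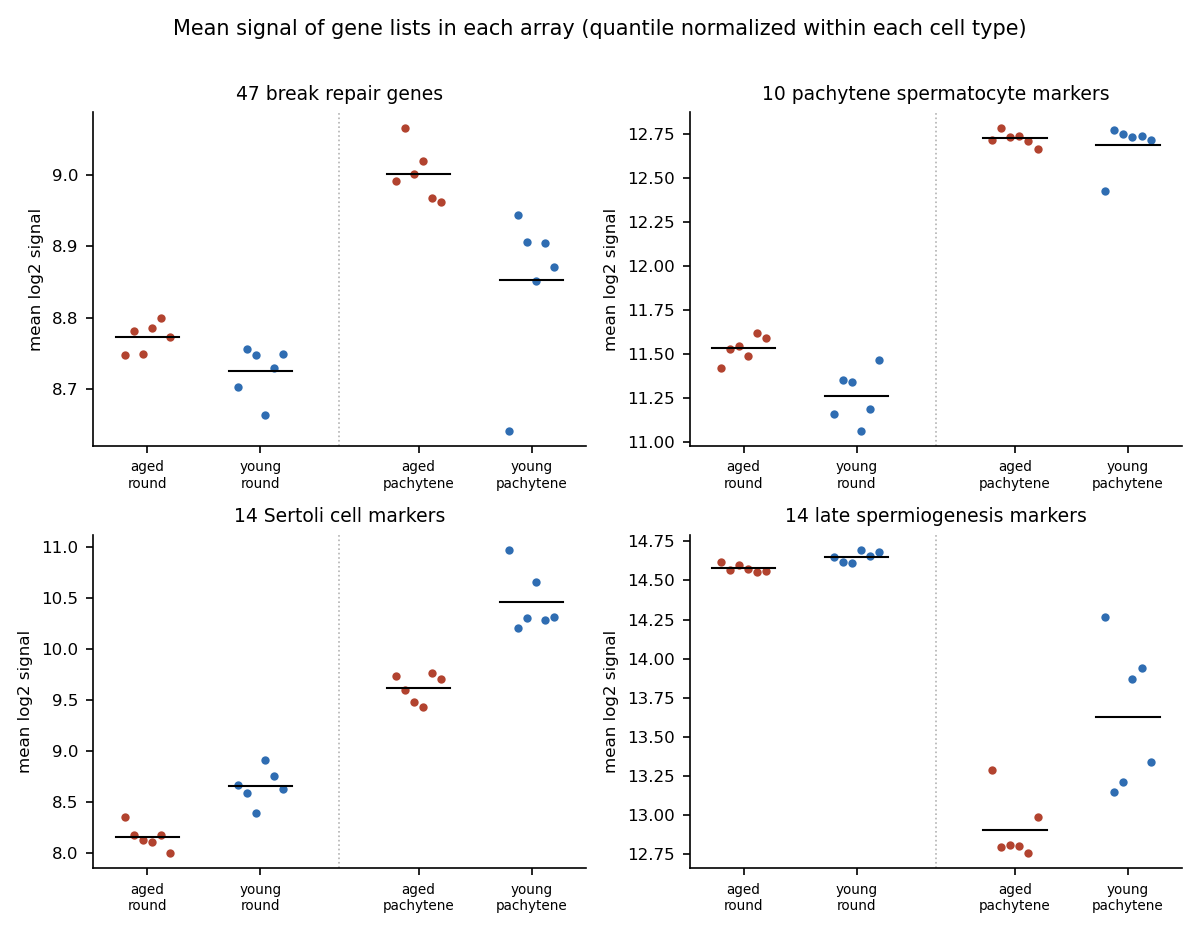
Mean log2 signal of 4 gene lists in each array after quantile normalization within each cell type; points are arrays, bars group means. The repair genes lie at 8.96 to 9.07 in aged and 8.64 to 8.94 in young pachytene spermatocytes, while the Sertoli cell markers lie at 9.43 to 9.77 in aged and 10.21 to 10.97 in young ones.

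**Figure D4:**
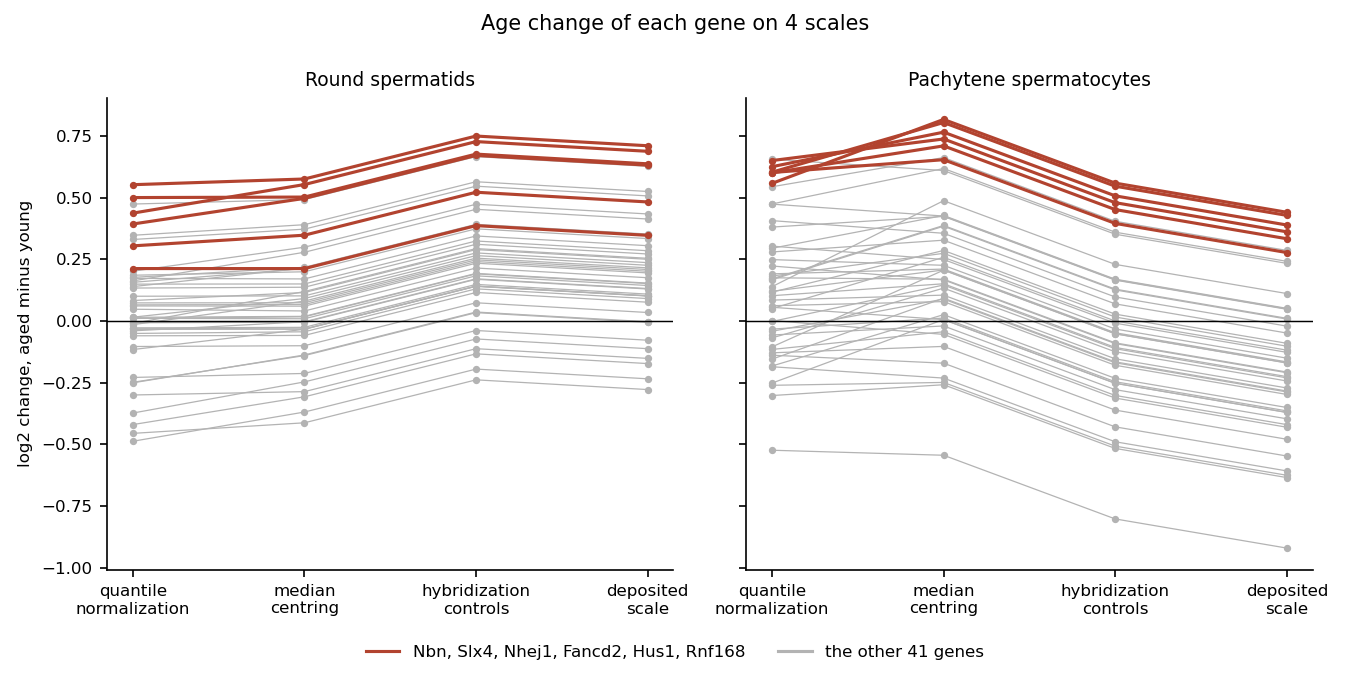
Age change (log2, aged minus young) of each of the 47 genes under 4 ways of scaling the arrays, for round spermatids on the left and pachytene spermatocytes on the right. Lines join the values of a gene, and the 6 genes higher in aged pachytene spermatocytes on all 4 scales are in red. On the deposited scale the whole set is moved down in pachytene spermatocytes, where its median is -0.17, and up in round spermatids, where it is 0.21.

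The promoters of 3 of these genes are shown because Slx4 had the smallest p, Bard1 the largest rise, and Rad51b, after quantile normalization, changes of opposite sign in the 2 cell types. Each runs 5′ to 3′ on the strand of the gene, from 250 bases before its start to 50 after it, and is from RefSeq on the assembly GRCr8: chr10:12032746-12033045 on the plus strand for Slx4, chr9:80143706-80144005 on the minus strand for Bard1, and chr6:103829304-103829603 on the plus strand for Rad51b. Capitals mark matches, on either strand, to letters searched for: the NRF1 site (GCGCA, any base, then GCGC, in Slx4), TTTCCCGC (an E2F site, in Bard1), TTTGAA (the cell cycle homology region, in Bard1 and Rad51b) and CCAAT (the CCAAT box, on the opposite strand in Rad51b).
Slx4: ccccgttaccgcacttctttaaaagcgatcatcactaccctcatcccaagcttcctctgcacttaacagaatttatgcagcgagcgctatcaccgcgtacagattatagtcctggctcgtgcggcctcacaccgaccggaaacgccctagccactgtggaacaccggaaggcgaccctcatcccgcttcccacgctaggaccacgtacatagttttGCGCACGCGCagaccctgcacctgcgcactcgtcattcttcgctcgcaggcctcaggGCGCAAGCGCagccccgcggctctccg
Bard1: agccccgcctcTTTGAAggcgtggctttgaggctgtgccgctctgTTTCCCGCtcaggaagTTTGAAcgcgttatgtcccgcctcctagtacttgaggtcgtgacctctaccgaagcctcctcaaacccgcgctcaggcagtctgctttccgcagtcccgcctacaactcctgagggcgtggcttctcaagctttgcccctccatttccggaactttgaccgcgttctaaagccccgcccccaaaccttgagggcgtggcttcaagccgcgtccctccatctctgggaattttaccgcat
Rad51b: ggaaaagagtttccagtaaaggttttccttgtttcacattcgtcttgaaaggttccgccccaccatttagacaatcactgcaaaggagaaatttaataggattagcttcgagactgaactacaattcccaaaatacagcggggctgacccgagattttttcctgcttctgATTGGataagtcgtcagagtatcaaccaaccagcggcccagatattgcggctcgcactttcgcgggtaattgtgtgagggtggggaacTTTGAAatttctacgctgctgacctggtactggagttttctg
Counted from the start of the gene, with bases before it below 0, the NRF1 letters of Slx4 begin at -34 and 24, and the E2F letters of Bard1 at -205. The NRF1 letters were in 4 of the 15 promoters of genes called higher in aged pachytene spermatocytes, and in 8 of the 40 members with a promoter in the table (20%), beside 4.26% of 33465 promoters of the same length. The letters TTTCCCGC were in 4 of the 40 (10%), beside 0.974%, while CCAAT was in 37.5% of both sets. TTTGAA was in 6 of the 40 (15%), beside 18.3%, so it was no more common among the members. The members' promoters held more G and C than the rest, with a median of 59% beside 51.7%. A match of letters is a description and shows no binding.

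In aged round spermatids, 13 of the 47 genes were higher than in young ones and 6 were lower. The lower genes were Rad51b, Brca1, Mre11, Top3b, Xrcc6 and Mdc1. Of all genes, 12.5% were called higher and 12.4% lower, so the share of members lower, 12.8%, was near that of all genes. The median change of the members was 0.05, beside 0.00 over all probe sets, and no member changed by 1.5-fold. For 8 genes the aged arrays lay wholly above the young ones and for 4 wholly below, beside 6.41% and 5.28% of all genes. On the deposited scale, where all probe sets were shifted by 0.14, 28 members were called higher and 2 lower (all genes 50.7% and 3.69%). With hybridization controls the counts were 26 and 0 (33.7% and 2.34%), and with median centring 9 and 4 (7.74% and 8.53%). Higher on all 4 scales were 9 genes, Xrcc2, Rad51ap1, Rad54l, Rad50, Nhej1, Fancd2, Hus1, Topbp1 and Rnf168, beside 7.22% of all genes, and no member was lower on all 4, beside 2.29% of all genes.

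Without young rats 1, 10 and 11 the counts in round spermatids were 4 higher and 4 lower, beside 4.67% and 3.65% of all genes, and of the 9 genes above only Rad50, Hus1 and Rnf168 were still called. Without young rat 11 alone, 8 were called higher, and the share of all genes was not computed for that count. Markers moved here as well: 8 of 14 Sertoli cell markers were lower in aged round spermatids, with a mean of 7.99 to 8.35 in aged and 8.39 to 8.91 in young arrays, and 4 of 10 pachytene markers were higher. Their part in the changes was not tested.

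Rad50, the arm of the break-sensing complex, had the smallest p in round spermatids. It lay at 8.75, 8.83 and 8.97 in aged round spermatids, against 8.33, 8.49 and 8.67 in young ones, without overlap (1.27-fold, log2 change 0.35, SE 0.05, adjusted p = 0.0022). A second probe set changed by 0.29, and another, with a mean of 5.75 on the deposited scale, had 0.01. Hus1 lay at 8.21, 8.35 and 8.51 in aged and 7.48, 7.91 and 8.14 in young round spermatids (1.41-fold, log2 change 0.50, SE 0.09, adjusted p = 0.00306). Rnf168 lay at 8.88, 8.97 and 9.12 in aged and 7.93, 8.50 and 8.80 in young round spermatids (1.47-fold, log2 change 0.55, SE 0.12, adjusted p = 0.00662). For both genes every aged array lay above every young one, and their second probe sets changed by 0.24 and 0.44.

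The other members called higher in aged round spermatids had changes of 0.13 to 0.47. Fancd2 changed by 0.30 (adjusted p = 0.00589) and Xrcc2 by 0.19 (adjusted p = 0.00679), and both lost their calls without young rats 1, 10 and 11. Slx4 lay at 10.48, 10.61 and 10.75 in aged and 9.66, 10.26 and 10.45 in young round spermatids (log2 change 0.44, adjusted p = 0.0146), and missed the threshold with median centring (adjusted p = 0.052). Rad51ap1 changed by 0.47 (adjusted p = 0.0243), and its adjusted p was 0.055 without young rat 11. Nbn, Nhej1, Topbp1, Lig4, Rnf8 and Rad54l made up the rest, with changes of 0.13 to 0.39.

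Among the genes lower in aged round spermatids, Mdc1 fell most. This adaptor, which binds phosphorylated H2ax, lay at 10.14, 10.34 and 10.46 in aged round spermatids, against 10.47, 10.74 and 11.18 in young ones (1.40-fold lower, log2 change -0.49, SE 0.10, adjusted p = 0.0067). Xrcc6, a subunit of Ku, lay at 9.31, 9.49 and 9.64 in aged and 9.72, 9.83 and 10.15 in young round spermatids (1.34-fold lower, log2 change -0.42, SE 0.08, adjusted p = 0.00394). Brca1 lay at 7.84, 7.96 and 8.02 in aged and 8.03, 8.20 and 8.46 in young round spermatids (1.23-fold lower, log2 change -0.30, SE 0.07, adjusted p = 0.00938). None of the 3 overlapped between ages. With hybridization controls none of them was called, although all 3 changes were still below 0, at -0.20 for Mdc1, -0.13 for Xrcc6 and -0.11 for Brca1. On the deposited scale Xrcc6 (-0.17, adjusted p = 0.064) and Brca1 (-0.15, adjusted p = 0.072) missed the threshold too. Mre11 and Top3b, a topoisomerase, each fell by 0.25, with the ages overlapping. Neither was called on the other 3 scales, and with hybridization controls Mre11 had 0.036 and Top3b 0.034.

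Called higher with age in both cell types were 11 genes: Rad51ap1, Rad54l, Rad50, Nbn, Slx4, Lig4, Nhej1, Fancd2, Hus1, Topbp1 and Rnf168. They were 23.4% of the members, beside 8.22% of all genes, and no member was lower in both, beside 6.58% of all genes. Without young rat 11 there were 7, since Rad51ap1, Rad54l, Lig4 and Topbp1 dropped out (all genes 5.34%), and without young rats 1, 10 and 11 there were 4, Rad50, Slx4, Hus1 and Rnf168 (2.76%). On the other scales the count was 8 with median centring (all genes 6.77%), 9 with hybridization controls (9.81%) and 6 on the deposited scale (6.25%). Both comparisons used fractions of the same 12 rats. Called in neither were 21 genes, among them Brca2, Palb2, Blm, Mus81, Chek1, Chek2, H2ax, Tp53bp1, Rad18 and Sprtn.

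The difference of the age changes between the cell types was tested itself, on all 24 arrays, after the offset described under the processing. A constant added to linear signals makes log2 changes of dim genes smaller. The tested difference therefore need not equal the gap between the 2 age tests. Bard1, for example, had age changes of 0.66 in pachytene and 0.10 in round spermatids, but a tested difference of -0.27 (adjusted p = 0.11). Rad51b and Prkdc had a lower age change in round spermatids than in pachytene spermatocytes, and Atr a higher one, beside 8.81% and 7.36% of all genes. These counts turned with the scale: 32 members had a higher age change in round spermatids and none a lower one on the deposited scale (all genes 76.1% and 0.134%), where the median over all probe sets was 0.26. With hybridization controls the counts were 16 and 0 (32.3% and 0.134%), at a median of 0.19, and with median centring 1 and 4 (11.7% and 19.3%), at -0.093. Of 14 late spermiogenesis markers 10 had a higher age change in round spermatids, and their part in these values was not tested. Rad51b lay, in the values used for its age test, at 8.08, 8.29 and 8.36 in aged and 8.48, 8.68 and 9.03 in young round spermatids, so that the ages did not overlap (1.37-fold lower, log2 change -0.46, SE 0.08, adjusted p = 0.00312). With hybridization controls its age change in round spermatids was -0.24 and missed the threshold (adjusted p = 0.055). Its age change in round spermatids minus that in pachytene spermatocytes was -0.67 (SE 0.10, adjusted p = 0.000432). On the deposited scale that difference was -0.12 and with hybridization controls -0.19, both short of the threshold.

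Prkdc, the catalytic subunit of the kinase that holds the ends in end joining, lay at 7.92, 8.16 and 8.27 in aged round spermatids and 8.09, 8.49 and 8.72 in young ones on the joint scale. In pachytene spermatocytes it lay at 8.83, 8.84 and 8.91 in aged and 8.50, 8.69 and 8.79 in young ones. The difference of the age changes was -0.47 (SE 0.12, adjusted p = 0.011), and it was 0.05 on the deposited scale and -0.25, with an adjusted p of 0.20, without young rats 1, 10 and 11. Atr had a difference of 0.27 (SE 0.08, adjusted p = 0.0332), which missed the threshold when any 1 of aged rats 8, 9 and 10 and young rats 2, 10 and 11 was left out, and without young rats 1, 10 and 11 together (0.16, adjusted p = 0.28).

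Between the cell types, 17 of the 47 genes were higher in round spermatids than in pachytene spermatocytes and 26 were lower. Of all genes, 49.2% were called higher and 39.1% lower, so most genes of either kind passed this test. The median difference of the members was -0.39, beside 0.03 over all probe sets. On the other scales fewer members were higher and more were lower: 12 and 33 with median centring (all genes 45.5% and 43.9%), 11 and 33 with hybridization controls (32.3% and 48.4%), and the same counts on the deposited scale (39.7% and 46.8%). On all 4 scales 11 were higher (23.4%, beside 32.3% of all genes) and 26 lower (55.3%, beside 34.9%). The 6 that were higher after quantile normalization alone were Rad51b, Bard1, Blm, Fancc, Tp53bp1 and Mdc1. Markers of other cells differed here too: 12 of 14 Sertoli cell markers were lower in round spermatids, with a median difference of -1.74, while 9 of 10 macrophage, 7 of 8 peritubular and 6 of 10 spermatogonium markers were higher. Their part in the differences of the repair genes was not tested. For these values a constant of 90.3 was added to the linear pachytene signals, since a control absent from the sample averaged 6.77 to 6.90 in the round spermatid groups and 4.19 to 4.38 in the pachytene groups, so dim genes differ between the 2 sets of arrays for reasons that cannot be told apart from cell type. Chek1, Chek2, Gen1, Palb2, Wrn and Xrcc3 lay below the array median in every round spermatid array, and Brca1, Chek2, Dclre1c, Gen1, Rad52, Wrn and Xrcc3 in every pachytene array, so their differences are between signals of which at least 1 was dim.

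**Figure D5:**
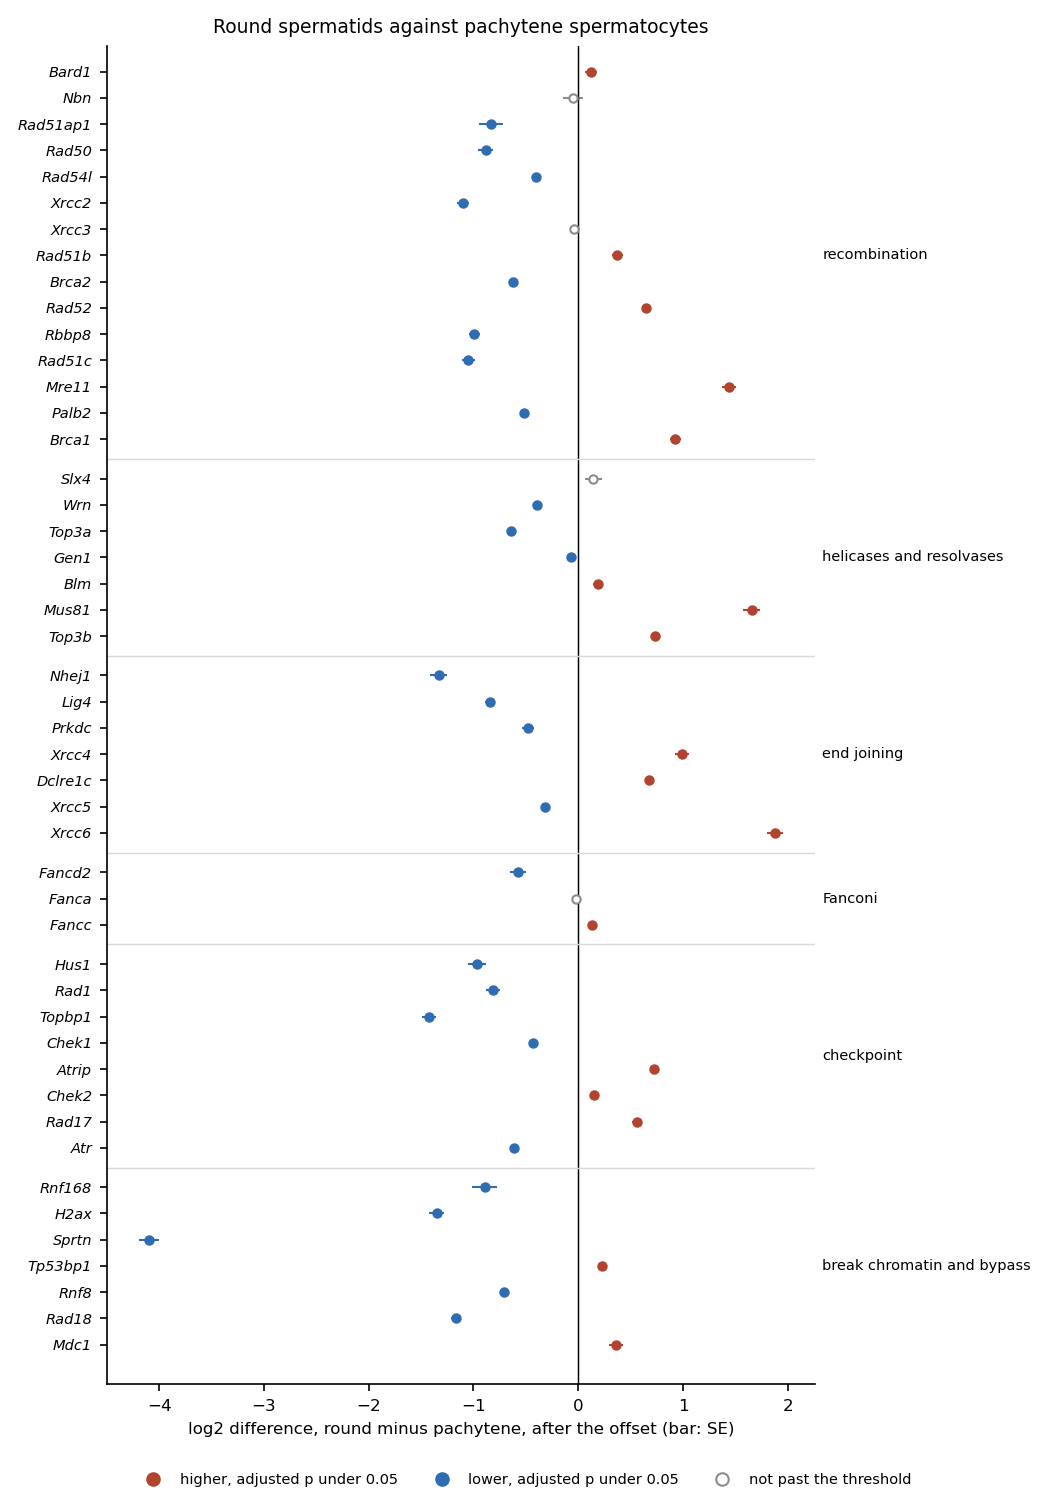
Difference between round and pachytene cells (log2, round minus pachytene, both ages averaged, after the offset) for each of the 47 genes, grouped by role. Bars are standard errors (12 arrays per cell type), mostly shorter than the points, and filled points passed an adjusted p of 0.05. Sprtn at -4.10 lies far to the left, and Xrcc6 at 1.88 and Mus81 at 1.66 farthest to the right.

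Sprtn differed most. This protease, which cuts proteins crosslinked to DNA, lay at 9.33, 9.43 and 9.53 in aged and 8.70, 9.09 and 9.84 in young round spermatids, against 13.43, 13.48 and 13.53 in aged and 12.90, 13.40 and 13.49 in young pachytene spermatocytes. The cell types lay far apart in both ages (17.1-fold lower in round spermatids, log2 difference -4.10, SE 0.10, adjusted p = 1.46e-20), and none of 28 alternatives brought the difference nearer to 0 than -4.06. Its promoter (RefSeq, GRCr8, chr19:69754739-69755038, plus strand, 5′ to 3′) is shown because Sprtn differed most between the cell types. It held 3 matches to the NRF1 site, all on the opposite strand and in capitals here. They begin at -92, -61 and -31.
Sprtn: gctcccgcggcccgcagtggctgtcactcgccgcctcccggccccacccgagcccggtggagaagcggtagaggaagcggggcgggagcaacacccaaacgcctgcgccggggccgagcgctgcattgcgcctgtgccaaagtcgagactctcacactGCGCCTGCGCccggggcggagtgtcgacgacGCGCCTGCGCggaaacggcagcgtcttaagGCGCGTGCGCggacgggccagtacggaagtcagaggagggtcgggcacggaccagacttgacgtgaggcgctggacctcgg
The same letters were in 6 of the 23 promoters of members lower in round spermatids (26.1%) and in 1 of the 14 of members higher there (7.14%). They were in 4.26% of all promoters. Other letters were also unevenly spread: CCAAT was in 26.1% and 50% of these sets (all promoters 37.5%). CNGTTG was in 56.5% and 28.6% (all promoters 36.2%). The sets follow the calls after quantile normalization, some of which turned on the other scales, and no difference between the sets was tested.

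Of the 7 genes of break chromatin and bypass, 5 were lower in round spermatids (71.4%, beside 39.1% of all genes). Rad18, a ubiquitin ligase of lesion bypass, lay at 11.34 to 11.57 in aged and 11.42 to 11.67 in young round spermatids, against 12.60 to 12.82 in aged and 12.39 to 12.95 in young pachytene spermatocytes (2.25-fold lower, log2 difference -1.17, SE 0.05, adjusted p = 2.54e-16). H2ax, the histone that is phosphorylated over the sex chromosomes in pachytene, was 2.55-fold lower (-1.35, SE 0.07, adjusted p = 2.51e-14), and its second probe set had -1.19. Rnf168 (-0.89) and Rnf8 (-0.71) were lower too, whereas Mdc1 (0.36) and Tp53bp1 (0.23) were higher in round spermatids after quantile normalization only. On the other 3 scales Tp53bp1 was called lower, with -0.33 to -0.44, and Mdc1 was not called, with -0.011 to -0.12.

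The 8 checkpoint genes split into 3 called with more signal in round spermatids and 5 with less. These were 37.5% and 62.5% of the 8, beside 49.2% and 39.1% of all genes. Topbp1, which in mouse acts on the unpaired sex chromosomes, lay at 8.99 to 9.44 in aged and 8.55 to 9.20 in young round spermatids, against 10.48 to 10.69 in aged and 10.11 to 10.48 in young pachytene spermatocytes (2.68-fold lower, log2 difference -1.42, SE 0.06, adjusted p = 1.16e-15). Atr was lower as well (-0.61), but its partner Atrip was 1.65-fold higher in round spermatids (0.73, SE 0.03, adjusted p = 2.18e-17), as was Rad17 (0.56). Both were still higher on the other scales, though with hybridization controls only by 0.24 for each. For Hus1 the probe sets disagreed: the brightest had -0.96 and the other 0.60, both past the threshold. Rad1 (-0.81) and Chek1 (-0.43) were lower, and Chek2 (0.15) was higher.

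End joining had 3 genes higher and 4 lower in round spermatids (42.9% and 57.1%, beside 49.2% and 39.1% of all genes). Xrcc6 lay at 9.61 to 9.92 in aged and 9.996 to 10.39 in young round spermatids, against 7.86 to 8.14 in aged and 7.94 to 8.71 in young pachytene spermatocytes (3.68-fold higher, log2 difference 1.88, SE 0.08, adjusted p = 1.37e-16). Its Ku partner Xrcc5 was lower by a little (-0.32), and the other probe set of Xrcc5 had 0.01. Of the ligation genes Xrcc4 was 1.98-fold higher in round spermatids (0.99, SE 0.07, adjusted p = 3.73e-12), while Nhej1 was 2.52-fold lower (-1.33, SE 0.08, adjusted p = 2.77e-13) and Lig4 lower by 0.84 on the log2 scale. With hybridization controls the difference of Xrcc4 was 0.38, and its second probe set had -0.02. The nuclease Dclre1c was 1.60-fold higher (0.68, SE 0.03, adjusted p = 1.1e-15).

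Recombination had 5 genes higher and 8 lower in round spermatids (33.3% and 53.3%, beside 49.2% and 39.1% of all genes). The subunits of the break-sensing complex differed: Mre11 lay at 9.61 to 9.79 in aged and 9.64 to 10.11 in young round spermatids, against 8.28 to 8.47 in aged and 8.20 to 8.82 in young pachytene spermatocytes (2.71-fold higher, log2 difference 1.44, SE 0.07, adjusted p = 2.25e-15). With hybridization controls the difference of Mre11 was 0.91. Rad50 was lower by 0.88, and Nbn had -0.05 and was called lower on the other 3 scales (-0.30 to -0.42). Brca1 (0.93) and Rad52 (0.65) were higher. Rad51b was called higher (0.37), but had -0.0081 to -0.12 and no call on the other 3 scales, and 0.036 in aged rats alone. On the lower side were Xrcc2 (-1.10), Rad51c (-1.05), Rbbp8 (-0.99), Rad51ap1 (-0.83) and Brca2 (-0.62). Bard1 was higher by 0.12, was called lower on the other 3 scales (-0.20 to -0.31), and lost its call when any 1 of aged rats 2, 3, 8, 9 and 10 and young rats 1, 3 and 11 was left out. Among the resolvases Mus81 lay at 10.41 to 10.65 in aged and 10.42 to 11.33 in young round spermatids, against 8.95 to 9.09 in aged and 8.86 to 9.51 in young pachytene spermatocytes (3.15-fold higher, log2 difference 1.66, SE 0.08, adjusted p = 5.76e-15), while Slx4 did not pass (0.14), though its second probe set was higher by 0.64 and on the other 3 scales Slx4 was called lower (-0.25 to -0.36). In the Fanconi pathway Fancd2 was lower (-0.57), and the probe sets of Fancc were called in opposite directions (0.13 for the brightest and -0.27 for another), and on the other 3 scales the brightest was called lower too (-0.069 to -0.18).

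A further list of 77 genes of the same pathways had 56 measured. In aged pachytene spermatocytes 20 of the 56 were higher and 10 lower (35.7% and 17.9%, beside 25.5% and 19.0% of all genes), with a median change of 0.15. With median centring 27 were higher and 9 lower (48.2% and 16.1%, beside 37.8% and 16.8% of all genes). With hybridization controls the counts were 12 and 14 (21.4% and 25%, beside 11.1% and 29.3%). On the deposited scale they were 6 and 27 (10.7% and 48.2%, beside 6.70% and 55.8%). Spo11, which makes the meiotic breaks, lay at 10.20, 10.31 and 10.37 in aged and 9.63, 9.93 and 10.06 in young pachytene spermatocytes (1.31-fold, adjusted p = 0.00151), and was still called on each scale and with each rat left out. Slx1b, the nuclease that works on the Slx4 scaffold, changed by 0.50, Eme2 by 0.36 and the polymerase Poll by 0.38, but none of these 3 was called on the deposited scale. Of the 8 other helicases and nucleases 6 were higher and none lower (75% higher, beside 25.5% of all genes). On the lower side were Rpa3, the smallest subunit of the protein that coats single strands (2.01-fold lower, log2 change -1.01, adjusted p = 0.00065), Cdc25b, a phosphatase of the cell cycle (-0.79), Brcc3 (-0.62) and Mnd1 (-0.59), a strand exchange partner.

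In aged round spermatids 11 of the 56 further genes were higher and 6 lower (19.6% and 10.7%, beside 12.5% and 12.4% of all genes). With hybridization controls the counts were 25 and 1 (44.6% and 1.79%, beside 33.7% and 2.34% of all genes). With median centring they were 10 and 4 (17.9% and 7.14%, beside 7.74% and 8.53%). On the deposited scale they were 32 and 3 (57.1% and 5.36%, beside 50.7% and 3.69%). Rpa1, the large subunit of the same single-strand coat, lay at 10.67, 10.997 and 11.24 in aged and 9.47, 9.82 and 10.49 in young round spermatids (2.10-fold, log2 change 1.07, SE 0.15, adjusted p = 0.00179). Smc6 (0.35), Hsf2bp (0.31) and Mcm9 (0.21) were higher too, and all 4 were still called on each scale and with each rat left out. Aptx (-0.43), Rnf4 (-0.34), Paxx (-0.33) and Fancl (-0.18) were lower. Between the cell types 20 of the 56 had a higher level in round spermatids and 33 a lower one (35.7% and 58.9%, beside 49.2% and 39.1% of all genes). On the other scales 12 to 16 were higher (21.4% to 28.6%, beside 32.3% to 45.5% of all genes). On each of them 40 were lower (71.4%, beside 43.9% to 48.4%). Ube2t, which tags Fancd2 with ubiquitin, was 9.33-fold lower in round spermatids, Rif1, a partner of Tp53bp1, 7.56-fold, the nuclease Exo1 3.76-fold and Abraxas1 2.52-fold lower. Tex15, needed in mouse for meiotic recombination, was 4.65-fold higher there and Paxip1 3.55-fold.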

How the data were processed

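The values are log2 signals as deposited, 1 per probe set and array. How the authors summarised the probes was not given in the sources used here. Germ cells were dissociated enzymatically and separated in a STAPUT gradient, per the labels' protocols, and their RNA was hybridized as biotinylated cRNA. The titles number separate rats, and their number limits the precision.

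Gene symbols came from the platform annotation, updated by gene ID, and 20826 probe sets carried exactly 1 symbol. After leaving out 57 control probe sets, limma 3.58.1 in R 4.3.3 (lmFit and eBayes) was run on 31042 probe sets, with Benjamini-Hochberg adjustment at 0.05. Age was tested within each cell type after quantile normalization of its 12 arrays. Comparisons across cell types, including the difference of the age changes, were made on all 24 arrays with 4 group means. For these, an offset of 90.3 was added to the linear pachytene values, which brought 45 spike-in controls from a mean difference of 0.61 ± 0.77 to -0.03 ± 0.17 (SD over controls), and the arrays were quantile normalized together. The fits were tested on simulated data.

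The members, the further pathway genes, the marker lists and the comparisons were chosen with earlier results of these data known. Full statistics are given for at most the 8 called members with the smallest p and the 4 with the largest change in each direction, and for at most 4 further pathway genes in each direction. The alternatives were 3 other scalings, leaving out dim or cross-hybridizing probe sets, averaging the probe sets of a gene, other eBayes settings, array weights, a fold threshold of 1.5, other offsets, each age alone, leaving out each rat or young rats 1, 10 and 11, and rat blocks. After removing group means, the fractions of a rat correlated at -0.08 to 0.38, over 0.1 for 8 of 12 rats, and a rat's own partner was its best match for 3; the pairing comes from the numbers in the titles. Promoters were RefSeq's (GRCr8), matched by symbol for 40 of the 47 genes. Besides the letters named with the results, TGACGTCA, TTTGGCGC and CNGTTG were searched, and each search covered both strands.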

Additional observations from a re-analysis of the deposited data

Results flagged for a closer look

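Single arrays stood far from the rest of their group for 7 of 27 genes examined, in 9 of 108 groups, where chance alone would give about 1 in 20, or 5.4. Young rat 1 held 4 of them in pachytene spermatocytes, each the lowest value of its group: Sprtn at 12.82 (next value 13.32), Topbp1 at 10.28 (10.51), Xrcc2 at 9.25 (9.79) and Rad18 at 12.34 (12.67). Aged rat 2 held 3 in the same fraction, the lowest for Bard1 (8.28, next 8.44) and the highest for Mre11 (8.31, next 8.09) and Xrcc6 (7.76, next 7.37). Rad18 was also highest by a wide gap in aged rat 3 in pachytene spermatocytes (12.73, next 12.60) and lowest by a wide gap in young rat 10 in round spermatids (11.31, next 11.51). Of these genes, Bard1 was still called in aged pachytene spermatocytes with each rat left out.

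The age change differed between the cell types for 3 members, 1 higher and 2 lower (2.13% and 4.26%, beside 7.36% and 8.81% of all genes). In round spermatids minus pachytene spermatocytes, the difference of the age changes was -0.67 for Rad51b, -0.47 for Prkdc and 0.27 for Atr on the log2 scale. Rad51b was still past the threshold with each rat left out and without young rats 1, 10 and 11, at which Prkdc and Atr were not. No explanation was tested for these values.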

How the results depend on the processing

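Counts of members depended on the scale. In aged pachytene spermatocytes 6 were higher and 23 lower on the deposited scale, 20 and 2 with median centring, and 9 and 8 with hybridization controls; in aged round spermatids the counts on these scales were 28 and 2, 9 and 4, and 26 and 0. Between the cell types 11 were higher in round spermatids with hybridization controls, as on the deposited scale. For the difference of the age changes, 32 were higher and 0 lower on the deposited scale, 1 and 4 with median centring, 16 and 0 with hybridization controls, and 4 were lower with each cell type normalized alone and no offset.

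At 1.5-fold or more, 6 were higher and 0 lower in aged pachytene spermatocytes, 0 and 0 in aged round spermatids, and 0 higher and 1 lower for the difference. Between the cell types 9 were higher at that threshold, and Sprtn, Topbp1, H2ax and Nhej1 were among those lower. Shares of all genes were not computed for this threshold, the dim filter, the array weights or the eBayes settings. Without the 40% dimmest probe sets, and with array weights, 2 were lower in aged pachytene spermatocytes; array weights gave 6 lower for the difference, and eBayes with trend and robust fitting 0 higher. Without young rats 1, 10 and 11 the counts were 14 higher and 0 lower in pachytene spermatocytes, 4 and 4 in round spermatids, and 0 and 1 for the difference. Leaving out 1 rat at a time gave 14 to 20 higher and 1 to 4 lower in pachytene spermatocytes, 8 to 14 and 5 to 8 in round spermatids, 16 to 18 and 26 between the cell types, and 0 to 2 and 2 to 3 for the difference. The shares of all genes beside these ranges were not computed.

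Signs turned for single genes. In pachytene spermatocytes Atr had 0.0058 with median centring. There the deposited scale gave Fanca -0.021, Rad51b -0.21, Prkdc -0.15, Xrcc4 -0.17, Rad54l -0.13, Xrcc3 -0.049 and Eme2 -0.027, and hybridization controls Rad51b -0.091, Prkdc -0.032, Xrcc4 -0.048 and Rad54l -0.0089. In round spermatids hybridization controls gave Mre11 0.036, Top3b 0.034 and Fancl 0.0022, and Rnf4 had 0.037 without cross-hybridizing probe sets. Between the cell types Rad51b, Bard1, Blm, Fancc, Tp53bp1 and Mdc1 were below 0 on all 3 other scales, and Bard1, Blm, Fancc and Tp53bp1 were called lower there. Fancc was also called lower (-0.038) with the probe sets of a gene averaged. For the difference, the deposited scale gave Prkdc 0.046, Paxx 0.25, Swsap1 0.21 and Wee1 0.28, and hybridization controls Paxx 0.18, Swsap1 0.14 and Wee1 0.21. The causes were not tested.

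With the replicate block, random over rats that share a number, 16 members were higher and 1 lower in pachytene spermatocytes and 13 and 6 in round spermatids. That block joins an aged and a young rat with the same number, so it is not the pairing of fractions. With the rat as a random block, 17 were higher and 26 lower between the cell types and 1 and 2 differed in the age change, as without a block. With the rat as a fixed block, Bard1 lost its call between the cell types (adjusted p = 0.101).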
